A study of Mus musculus with 9 samples.

Results

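Laminins, other basement membrane proteins and integrins were followed in the mouse submandibular salivary gland after part of the gland had been removed. The set takes the measured laminin chain genes and integrin alpha and beta subunit genes by symbol, plus Nid1, Nid2, Hspg2, Agrn and Dag1. It holds 40 measured genes, each read by 1 transcript cluster, of 22206 transcript clusters tested (Itga1 and Itga10 are not analysed here). All animals were female C57BL6/J mice aged 12 weeks, and every gland came from an operated animal. The groups were glands taken 3 days after mock surgery, 3 days after partial resection and 14 days after partial resection, with 3 biological replicates and so 3 Clariom S arrays each. Mock glands were sampled on day 3 only, so at day 14 the effect of resection cannot be told apart from the time since surgery. Values are the deposited log2 values per transcript cluster, and a difference is a log2 difference ± its standard error (SE) on that scale.

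The basement membrane is the thin sheet of matrix under epithelia and around vessels, nerves and muscle fibres. Its laminins are trimers of an alpha, a beta and a gamma chain that form a network, which nidogens and perlecan join to a second network of type IV collagen. Cells hold on to it through integrins, pairs of an alpha and a beta subunit, and through dystroglycan. Other integrins bind fibronectin and other interstitial proteins, and those with the beta 2 subunit belong to leukocytes. In the developing salivary gland the basement membrane surrounds the branching epithelium, and in the adult gland it lies under acini, ducts and myoepithelial cells.

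The arrays were alike in scale, with medians of 5.09 to 5.24 over all transcript clusters and correlations of 0.985 to 0.990 between arrays of a group. The labelled tissue matched its markers: the 5 acinar markers averaged 16.86 to 17.68 and the 5 ductal markers 11.03 to 11.50 on every array, while 4 of the 5 skeletal muscle markers stayed below the median of the background control rows. The table has no detection calls. The 23 background control rows ran from 2.05 to 6.75 with a median of 4.93, and 16 of the 40 genes stayed below the highest of those rows on all 9 arrays. The day 3 resected arrays spread widely for these genes. Replicate 1 was the lowest of its group for 22 of the 40 genes (55%), and for 10 of the 14 laminins, nidogens, perlecan and agrin (71.4%), against 34.6% of all transcript clusters. Replicate 3 was the highest of its group for 19 of the 40 genes and for 8 of the 14, and the lowest for 0 of the 14. For several results the difference without day 3 resected replicate 1 or 3 is given as well.

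Of the 40 genes, 8 passed the threshold in at least 1 comparison, and the RefSeq promoter table (GRCm38.p6) held an entry for 5 of them, Itgam, Itga4, Itga5, Itga8 and Itga9. The 250 bases before the start are shown, 5′ to 3′ in the direction of the gene, for Itgam and Itga4, which rose on day 3, and for Itga8, the only gene of the 8 that was lowest on day 3. Capitals mark GAGGAA on either strand (TTCCTC where it lies on the opposite strand), the core bound by PU.1, a transcription factor of myeloid cells. The Itgam window is chr7:128062390-128062639 on the plus strand, the Itga4 window chr2:79255176-79255425 on the plus strand, and the Itga8 window chr2:12301945-12302194 on the minus strand.
Itgam: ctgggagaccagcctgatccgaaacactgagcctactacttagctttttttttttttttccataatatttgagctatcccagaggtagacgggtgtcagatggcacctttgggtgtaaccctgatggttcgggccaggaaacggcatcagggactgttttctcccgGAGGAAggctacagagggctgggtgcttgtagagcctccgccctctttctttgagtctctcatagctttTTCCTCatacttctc
Itga4: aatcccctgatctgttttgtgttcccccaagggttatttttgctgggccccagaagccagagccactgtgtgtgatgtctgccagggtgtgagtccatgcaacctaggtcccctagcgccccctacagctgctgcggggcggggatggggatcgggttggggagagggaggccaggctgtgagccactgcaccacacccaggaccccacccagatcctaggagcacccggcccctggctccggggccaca
Itga8: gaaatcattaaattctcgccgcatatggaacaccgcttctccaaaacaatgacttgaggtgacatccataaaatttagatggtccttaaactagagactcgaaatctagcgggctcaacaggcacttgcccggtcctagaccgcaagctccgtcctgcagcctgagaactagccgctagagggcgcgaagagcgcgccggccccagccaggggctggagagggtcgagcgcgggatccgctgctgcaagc
The Itgam window held 2 matches, from 84 to 79 and from 15 to 10 bases before the start. The windows of Itga4, Itga8 and Itga9 held 0, and that of Itga5 held 1. Of the 26 genes of the set with an entry, 15 held at least 1 match. Of 32851 such windows in the table, 23.3% held at least 1 match. The 15 are genes with a match in any of their windows, while the 23.3% is a share of single windows. The 2 values are therefore not alike in unit, and no enrichment was tested.

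Resected glands of day 3 differed from mock in some of these genes. Of the 26 integrin and dystroglycan genes 3 rose (11.5%), and of the 14 laminins, nidogens, perlecan and agrin 1 rose (7.14%). Of 40 genes, 4 rose and 0 fell (10%), beside 4.92% of all transcript clusters that rose, 1.36% that fell and 6.27% that passed in either direction. They were the leukocyte subunits Itgam and Itgb2, the subunit Itga4 and the laminin chain Lama4. The median difference of the 40 genes was 0.18, beside -0.06 for all transcript clusters. The split of all calls, 1092 higher and 301 lower, was 973 and 452 after quantile normalization and 1013 and 480 after centring on array medians. Calls rest on limma with adjustment over all transcript clusters, at an adjusted p below 0.05. Leaving out day 3 resected replicate 1 gave 9 genes past the threshold, all higher, and leaving out replicate 3 gave 2.

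**Figure D1:**
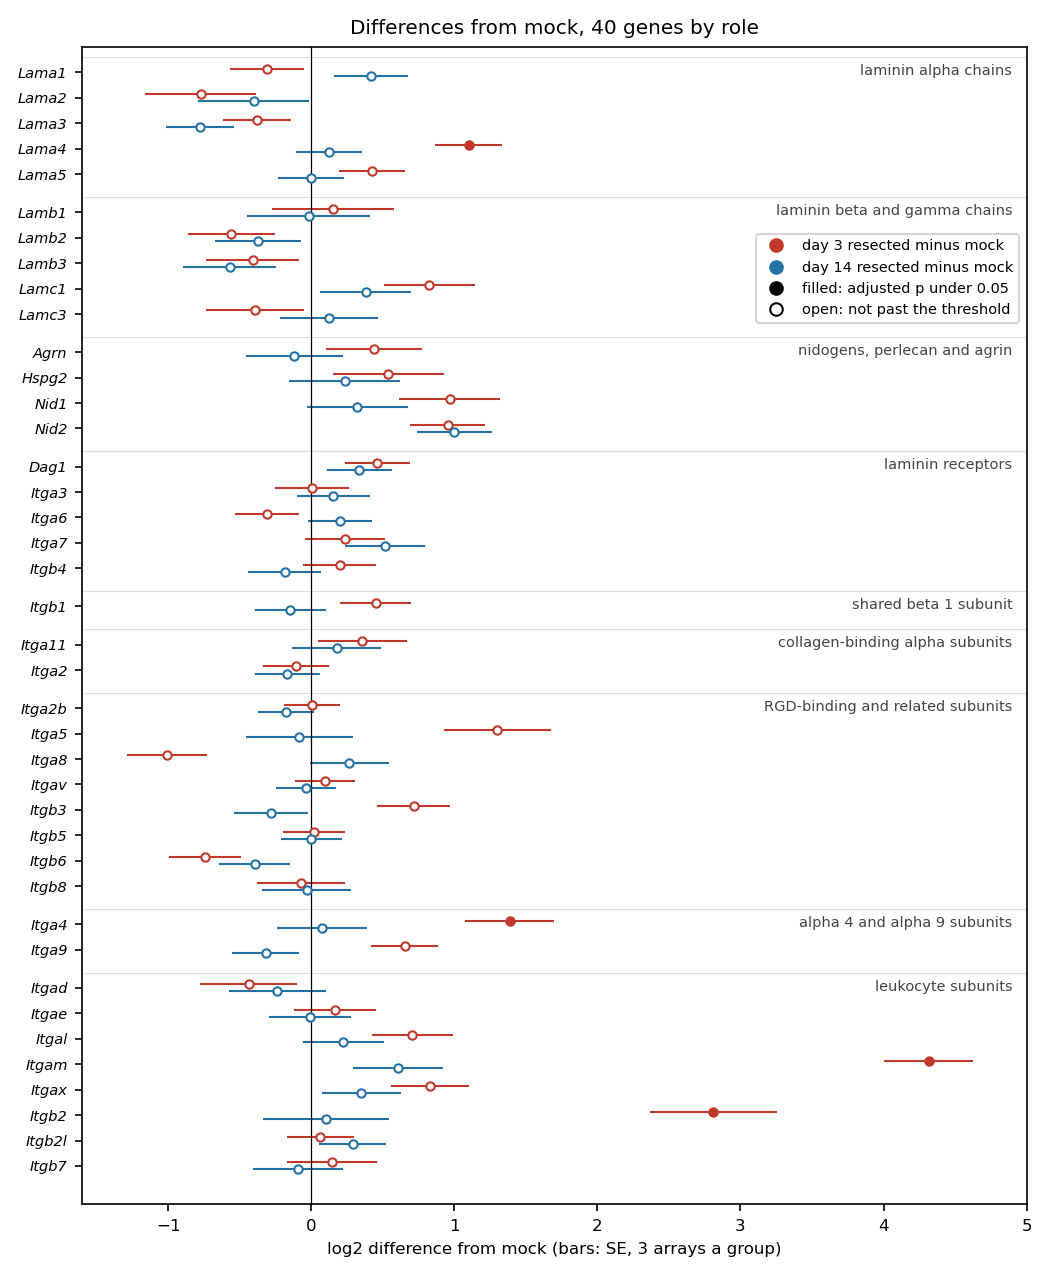
Log2 difference from mock (x axis) of the 40 genes, grouped by role, for day 3 (red) and day 14 (blue) resected glands, with 3 arrays a group and bars for the SE. Filled points passed the threshold: Itgam (4.32), Itgb2 (2.81), Itga4 (1.39) and Lama4 (1.10) on day 3 and 0 genes on day 14.

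Among the leukocyte subunits, the alpha M and beta 2 chains of the complement receptor Mac-1 differed most. Itgam, the alpha M chain of macrophages and neutrophils, measured 5.70, 5.52 and 5.74 (mock), 9.35, 9.85 and 10.71 (resected, day 3) and 6.65, 6.01 and 6.12 (resected, day 14). All day 3 resected arrays lay above all others. The rise over mock was 4.32 ± 0.31 (adjusted p = 1.0e-05, limma). Its partner Itgb2, the beta chain shared by all leukocyte integrins of this class, measured 4.64, 4.39 and 4.28 (mock), 5.85, 7.87 and 8.03 (resected, day 3) and 4.57, 4.68 and 4.39 (resected, day 14). Day 3 resected replicate 1 was lower than the other arrays of its group but above every mock and day 14 array. Itgb2 rose by 2.81 ± 0.44 (adjusted p = 0.00176, limma), by 3.51 without replicate 1 and by 2.42 without replicate 3. All its mock and day 14 arrays were below the background median of 4.93, so the size of the rise is approximate.

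The other alpha chains that pair with beta 2 did not pass. Itgax, the alpha X chain of dendritic cells and some macrophages, measured 4.43, 4.72 and 4.71 (mock), 5.15, 5.56 and 5.63 (resected, day 3) and 4.36, 5.10 and 5.44 (resected, day 14), a day 3 difference of 0.83 ± 0.27 (adjusted p = 0.108, limma). Itgal, the alpha L chain of lymphocytes and other leukocytes, measured 4.14, 4.59 and 4.36 (mock), 4.96, 5.46 and 4.79 (resected, day 3) and 3.98, 4.86 and 4.91 (resected, day 14), a day 3 difference of 0.71 ± 0.28 (adjusted p = 0.197, limma). For both genes the day 3 resected arrays lay above the mock arrays but overlapped the day 14 arrays. Itgad, the alpha D chain, measured 5.004, 3.72 and 3.85 (mock), 4.02, 3.34 and 3.90 (resected, day 3) and 3.96, 3.59 and 4.31 (resected, day 14), a day 3 difference of -0.44 ± 0.34 with groups that overlapped. The remaining leukocyte genes were Itgae (0.17 ± 0.29), which marks T cells within epithelia, Itgb7 (0.15 ± 0.31), the partner of alpha 4 and alpha E, and the beta 2-like Itgb2l (0.06 ± 0.24). Itgae and Itgb2l were below the background median on all 9 arrays, Itgad on 8, Itgal on 7 and Itgax on 4. Their differences are therefore limited by signal.

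Of the markers of leukocytes, those of macrophages rose as a whole and those of the other types in part or not at all. All 5 measured macrophage markers of 6 listed (Lyz2, Csf1r, Mrc1, Aif1 and Adgre1) rose on day 3. Their mean log2 value was 8.65 to 9.58 on mock, 12.08 to 12.31 on day 3 resected and 9.47 to 9.95 on day 14 resected arrays. Mock replicate 3 alone gave the 8.65, beside 9.58 and 9.48 on mock replicates 1 and 2. On day 3 resected replicates 1, 2 and 3 the macrophage mean was 12.10, 12.08 and 12.31, and the neutrophil mean 5.52, 6.45 and 6.30. The fibroblast mean (12.40, 12.92 and 13.25) and the endothelial mean (6.46, 6.54 and 6.79) were also lowest on replicate 1. Of 5 measured neutrophil markers 2 rose (Retnlg and S100a8), with means of 4.32 to 4.46, 5.52 to 6.45 and 4.17 to 4.50 in the same order of groups. Of 5 T cell markers 1 rose, Cd3e, and 4 of the 5, Cd3e included, stayed below the background median on all arrays. Of 3 B cell markers 0 rose, and all 3 were below that median on all arrays. Of 5 dendritic cell markers 1 rose, Cd209a. The part of these cells in the integrin differences was not tested, and in whole tissue more cells of a type and more RNA per cell cannot be told apart.

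Alpha 4 and alpha 9 are close relatives that both pair with beta 1. Itga4, the chain that binds VCAM-1 and fibronectin and pairs with beta 1 or beta 7, measured 7.10, 7.89 and 7.44 (mock), 8.20, 8.92 and 9.47 (resected, day 3) and 7.62, 7.31 and 7.72 (resected, day 14). The day 3 resected arrays lay above all others, with replicate 1 nearest to the mock arrays. Itga4 rose by 1.39 ± 0.31 (adjusted p = 0.0172, limma), by 1.72 without replicate 1 and by 1.08 without replicate 3. In 5 of the 18 alternative fits the call ended (adjusted p 0.0501 to 0.0848): when mock array 1 or 3, or resected day 3 array 2 or 3, was left out, and when the fit held only these groups. Itga9, whose integrin binds tenascin C, measured 5.31, 5.35 and 4.96 (mock), 5.56, 5.99 and 6.02 (resected, day 3) and 4.58, 5.16 and 4.92 (resected, day 14). It lay above mock on every day 3 resected array, but the difference of 0.65 ± 0.23 did not pass (adjusted p = 0.139, limma).

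Itgb1, the beta chain shared by the laminin, collagen and fibronectin receptors of most cells, measured 14.66, 14.24 and 14.18 (mock), 14.45, 14.69 and 15.28 (resected, day 3) and 14.14, 14.35 and 14.14 (resected, day 14). Its groups overlapped on day 3 and the difference of 0.45 ± 0.25 did not pass (adjusted p = 0.366, limma). Itgb7 overlapped as well, at 7.49, 7.96 and 7.73 (mock), 8.68, 7.72 and 7.22 (resected, day 3) and 7.75, 7.53 and 7.61 (resected, day 14). So of the subunits that pair with the risen alpha chains, beta 2 passed and beta 1 and beta 7 did not, which was not tested as a difference between subunits.

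The integrins that bind fibronectin, vitronectin and latent TGF-beta through the RGD motif had 0 of 8 genes past the threshold on day 3. That stands beside 6.27% of all transcript clusters, and the differences lay on both sides of 0. Itga5, the fibronectin receptor chain, measured 3.06, 3.01 and 3.32 (mock), 3.88, 3.96 and 5.45 (resected, day 3) and 3.54, 2.74 and 2.86 (resected, day 14). Day 3 resected replicate 3 was the highest array by more than 1 log2 unit, and the other 8 of 9 arrays were below the background median, so the sizes of the Itga5 differences are approximate. The difference of 1.30 ± 0.37 just missed the threshold (adjusted p = 0.0591, limma) and passed with quantile normalization, robust variances, a variance trend or without day 3 resected replicate 1 (adjusted p 0.0368 to 0.0474). Without day 3 resected replicate 3 it was 0.79 (adjusted p 0.180). Itga8, whose integrin binds nephronectin, measured 8.06, 8.09 and 8.03 (mock), 7.07, 7.36 and 6.74 (resected, day 3) and 7.88, 8.96 and 8.15 (resected, day 14). All day 3 resected arrays lay below all others. The difference of -1.01 ± 0.28 missed the threshold (adjusted p = 0.0512, limma). It passed in 8 of the 18 alternative fits, at adjusted p values of 0.0195 to 0.0455. In the others the adjusted p reached 0.2045. Over the fits without 1 array the difference ran from -1.16 to -0.85.

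Itgb3, the beta chain of the vitronectin receptor and of the platelet fibrinogen receptor, measured 6.20, 5.92 and 5.50 (mock), 6.54, 6.23 and 7.005 (resected, day 3) and 5.40, 5.66 and 5.71 (resected, day 14), a day 3 difference of 0.72 ± 0.26 (adjusted p = 0.139, limma). Its partners did not pass on day 3, and their groups overlapped. Itgav, the alpha v chain, measured 9.55, 9.68 and 9.52 (mock), 9.42, 9.61 and 10.01 (resected, day 3) and 9.58, 9.53 and 9.54 (resected, day 14), a day 3 difference of 0.10 ± 0.21. Itga2b, the platelet chain, measured 6.32, 6.32 and 6.53 (mock), 6.38, 6.51 and 6.30 (resected, day 3) and 6.27, 6.34 and 6.04 (resected, day 14), a day 3 difference of 0.01 ± 0.20. Among 4 measured platelet and megakaryocyte markers 1 rose, Pf4, which macrophages can also express. Itgb6, an epithelial activator of TGF-beta, lay lower on every day 3 resected array (8.61, 8.63 and 8.41) than on the mock arrays (9.46, 9.05 and 9.36), at -0.74 ± 0.25 (adjusted p = 0.115, limma). Of the epithelial markers, 2 of 5 acinar genes fell on day 3, Bhlha15 (-1.19 ± 0.31) and Slc12a2 (-1.15 ± 0.24). Another pair, Pip and Car6, read 1 identical value on every mock and day 3 array and could show no change. The mean of all 5 acinar markers was 17.29 to 17.68 on mock and 16.86 to 17.25 on day 3 resected arrays. Of the ductal genes 1 of 5 rose (Krt19), and of the myoepithelial and basal genes 1 of 6 fell (Myh11). The part of these epithelial cells in the Itgb6 and Itga8 differences was not tested. Itgb5 and Itgb8, further partners of alpha v, differed by 0.02 ± 0.21 and -0.07 ± 0.31.

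**Figure D2:**
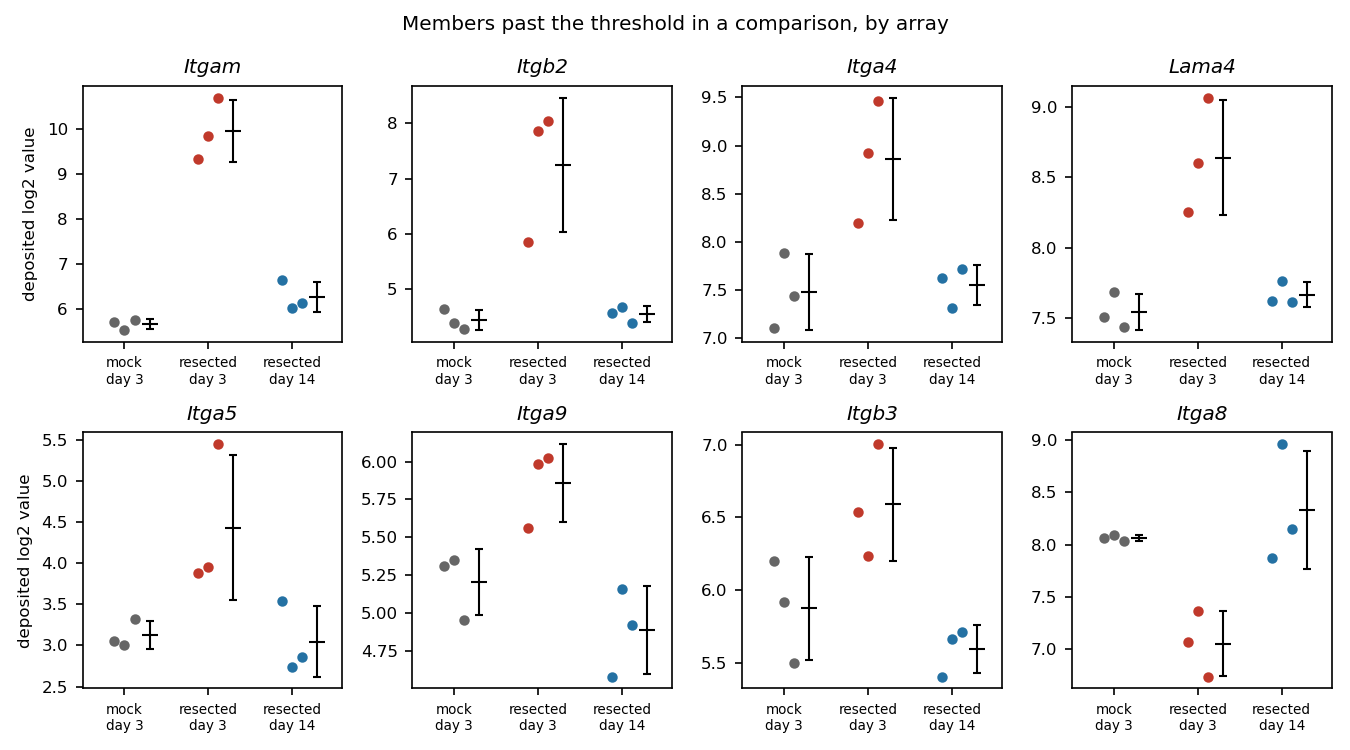
Deposited log2 value (y axis, a different range in each panel and not starting at 0) on each of the 9 arrays, for the 8 genes past the threshold in a comparison; points are arrays, and dashes with bars the mean and SD of 3. The day 3 resected arrays of Itgam reach 9.35 to 10.71 against 5.52 to 6.65 elsewhere, and those of Itga8 lie lowest, at 6.74 to 7.36.

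Of the laminin chains, 1 of 10 rose on day 3, beside 4.92% of all transcript clusters. Lama4, the alpha chain of vessel walls and of mesenchymal and fat tissue, measured 7.50, 7.68 and 7.43 (mock), 8.25, 8.60 and 9.07 (resected, day 3) and 7.62, 7.76 and 7.61 (resected, day 14). The day 3 resected arrays lay above all others, and the rise was 1.10 ± 0.23 (adjusted p = 0.0116, limma). It was 0.89 without day 3 resected replicate 3, which ended the call (adjusted p 0.0597). Of 6 endothelial markers 0 passed, and their mean was 5.99 to 6.25 on mock and 6.46 to 6.79 on day 3 resected arrays. Of 4 pericyte and vascular smooth muscle markers 0 passed, with means of 5.49 to 5.65 and 5.41 to 5.73. Of 4 adipocyte markers 0 passed. Of 4 measured fibroblast markers 2 rose, Pi16 and Lum, with means of 11.03 to 11.92 and 12.40 to 13.25. Mock replicate 3 alone gave the 11.03, beside 11.91 and 11.92 on mock replicates 1 and 2. The part of these cells in the Lama4 difference was not tested.

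The other alpha chains did not pass on day 3, and 3 of the 4 had means below mock. Lama2, the alpha chain of muscle and Schwann cell basement membranes, measured 9.39, 9.41 and 8.21 (mock), 7.33, 8.50 and 8.86 (resected, day 3) and 8.70, 8.60 and 8.51 (resected, day 14). Its mock and day 3 resected arrays overlapped, and the difference was -0.77 ± 0.39 (adjusted p = 0.318, limma). Of 5 skeletal muscle markers 0 passed. Of 2 measured Schwann cell markers (of 5 listed), Mbp and Sox10, 0 passed. Mbp had a mean of 6.39 on mock and 5.63 on day 3 resected arrays, and Sox10 of 11.14 and 10.18. These 2 genes are too few to follow Schwann cells. Lama3, the epithelial alpha chain of the laminin that anchors hemidesmosomes, measured 7.05, 6.86 and 6.31 (mock), 6.35, 6.26 and 6.47 (resected, day 3) and 6.08, 6.14 and 5.66 (resected, day 14), a day 3 difference of -0.38 ± 0.24. Lama1, the alpha chain of early embryonic basement membranes, measured 3.98, 3.46 and 3.87 (mock), 3.47, 2.97 and 3.93 (resected, day 3) and 4.20, 4.06 and 4.29 (resected, day 14), and Lama5, a broad epithelial and vascular alpha chain, measured 3.22, 3.54 and 3.22 (mock), 4.10, 3.53 and 3.63 (resected, day 3) and 3.09, 3.60 and 3.28 (resected, day 14). Lama1 and Lama5 stayed below the background median on all arrays and differed by -0.31 ± 0.26 and 0.42 ± 0.23.

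Beta and gamma chains had 0 of 5 genes past the threshold on day 3, too few genes to tell from the 6.27% of all transcript clusters. Lamc1, the gamma chain of most laminins, measured 7.30, 6.74 and 7.26 (mock), 7.19, 7.98 and 8.60 (resected, day 3) and 7.64, 7.20 and 7.59 (resected, day 14), a day 3 difference of 0.83 ± 0.32 (adjusted p = 0.176, limma). Lamb1, the broad beta chain, measured 7.31, 7.82 and 7.38 (mock), 6.58, 7.87 and 8.51 (resected, day 3) and 6.78, 7.85 and 7.83 (resected, day 14), a day 3 difference of 0.15 ± 0.43 with groups that overlapped. For both genes replicate 1 was the lowest day 3 resected array and replicate 3 the highest. The means of Lamb2, a beta chain of vessels and neuromuscular junctions, and of Lamb3, the partner of Lama3, were below mock on both days. Lamb2 measured 7.59, 7.06 and 7.24 (mock), 7.27, 6.34 and 6.60 (resected, day 3) and 6.35, 7.17 and 7.25 (resected, day 14), and Lamb3 measured 6.56, 6.85 and 6.14 (mock), 5.87, 6.14 and 6.31 (resected, day 3) and 6.68, 5.90 and 5.25 (resected, day 14). Lamc3, a gamma chain of restricted tissues, measured 5.05, 6.30 and 5.48 (mock), 5.01, 5.39 and 5.24 (resected, day 3) and 5.56, 6.39 and 5.23 (resected, day 14). These 3 genes differed on day 3 by -0.56 ± 0.30, -0.41 ± 0.33 and -0.39 ± 0.34, and their groups overlapped.

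The nidogens, perlecan and agrin, which link and stabilise the laminin network, all had means above mock on day 3. Of these 4 genes 0 passed, beside 6.27% of all transcript clusters. Nid1 measured 8.65, 8.48 and 8.46 (mock), 8.50, 9.82 and 10.17 (resected, day 3) and 9.10, 8.57 and 8.87 (resected, day 14). Day 3 resected replicate 1 lay within the mock arrays and the other day 3 resected arrays above them. The difference was 0.97 ± 0.35 (adjusted p = 0.148, limma). Nid2 measured 4.60, 4.82 and 4.84 (mock), 5.12, 6.17 and 5.83 (resected, day 3) and 5.79, 5.58 and 5.89 (resected, day 14), with every resected array of both days above every mock array. Its day 3 difference of 0.95 ± 0.26 just missed the threshold (adjusted p = 0.0501, limma). It passed in 5 of the 18 alternative fits, and in the others the adjusted p reached 0.197. Hspg2, which encodes perlecan, measured 6.10, 6.77 and 6.84 (mock), 6.03, 7.67 and 7.62 (resected, day 3) and 6.83, 6.53 and 7.06 (resected, day 14), and Agrn, which encodes agrin, measured 5.52, 6.30 and 6.01 (mock), 6.17, 6.70 and 6.29 (resected, day 3) and 4.997, 6.16 and 6.33 (resected, day 14). Both overlapped between groups, with day 3 differences of 0.54 ± 0.39 and 0.44 ± 0.34.

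Without day 3 resected replicate 1, Nid1 rose by 1.47 (adjusted p = 0.00396, limma), Nid2 by 1.25 (0.00761), Lamc1 by 1.19 (0.0286), Hspg2 by 1.08 (0.0462) and Itga5 by 1.58 (0.0368). These 5, with Itgam, Itgb2, Itga4 and Lama4, made up the 9 genes past the threshold in that fit. The fit leaves 2 day 3 resected arrays. Without replicate 3 instead, the differences were smaller and none of the 5 passed: Nid1 0.63, Nid2 0.89, Lamc1 0.49, Hspg2 0.28 and Itga5 0.79 (adjusted p 0.168 to 0.836). Some list means rose over replicates 1, 2 and 3 and others did not. The mean of the interstitial and cell-surface integrin ligands (fibronectin, collagens and others) was 7.58, 8.16 and 8.82, and that of the fibroblast markers was 12.40, 12.92 and 13.25. The macrophage mean was 12.10, 12.08 and 12.31, and the ductal mean 11.43, 11.50 and 11.39.

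**Figure D3:**
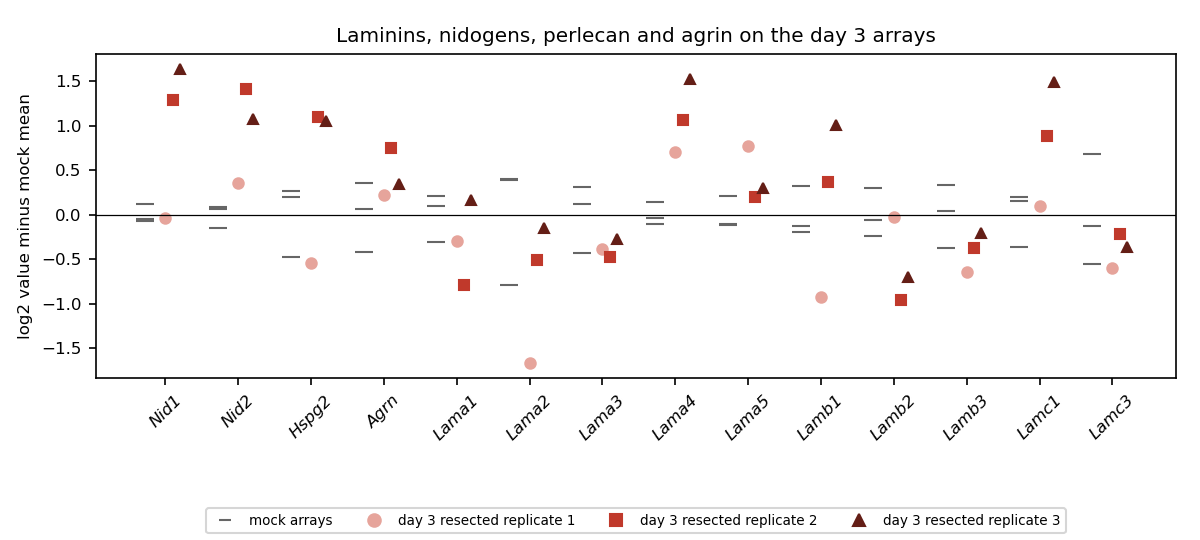
Log2 value minus the mock mean (y axis) of the 14 laminin, nidogen, perlecan and agrin genes on the mock arrays (dashes) and on the 3 day 3 resected arrays (symbols by replicate). Replicate 1 is the lowest of its group for 10 of the 14 genes, and for Nid1 it lies among the mock arrays while replicates 2 and 3 exceed all of them.

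Receptors for laminin had 0 of 5 genes past the threshold on day 3, too few genes to tell from the 6.27% of all transcript clusters. Dag1, which encodes dystroglycan, measured 11.85, 11.53 and 12.11 (mock), 12.39, 12.40 and 12.09 (resected, day 3) and 11.97, 12.09 and 12.44 (resected, day 14), a day 3 difference of 0.46 ± 0.23 (adjusted p = 0.309, limma). Itga6, the alpha 6 chain that pairs with beta 1 or with the hemidesmosome chain beta 4, differed by -0.31 ± 0.22, with replicate 3 at 13.34 and all other arrays of the study between 13.85 and 14.37. Itgb4 differed by 0.20 ± 0.26, Itga3 by 0.01 ± 0.26 and Itga7 by 0.24 ± 0.28. Of the collagen-binding chains, Itga2 differed by -0.11 ± 0.23 and Itga11 by 0.36 ± 0.31. Itga7 and Itga11 were below the background median on all 9 arrays and Itga2 on 5, so their differences are limited by signal.

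Related genes were counted in 4 lists. Of 25 measured other basement membrane components (of 28 listed, among them the type IV collagen chains), 3 rose and 0 fell on day 3, with a median difference of 0.03. They were Sparc, a collagen-binding glycoprotein that is also made by fibroblasts (3.51 ± 0.31), Fbln1, fibulin-1 (1.64 ± 0.41), and Pxdn, which crosslinks type IV collagen (1.49 ± 0.34). The type IV collagen chains Col4a1 and Col4a2, named here after their values were seen, differed by -0.09 ± 0.35 and 0.30 ± 0.29. Col4a1 was below the background median on most arrays. Of 21 measured interstitial and cell-surface integrin ligands (of 22 listed), 8 rose and 0 fell (38.1%), with a median of 1.13. Among them were Tnc (tenascin C, 5.57 ± 0.78), Col1a1 (5.12 ± 0.58), Fn1 (fibronectin, 4.86 ± 0.57) and Col3a1 (4.69 ± 0.42). Tnc was below the background median on the mock arrays, and without day 3 resected replicate 3 its rise was 4.41, beside 4.59 for Col1a1 and 4.46 for Fn1. Of the 25 other basement membrane components, 11 stayed below the background median on all arrays, beside 3 of the 21 ligands. The 2 list medians are therefore not alike in signal. The 14 laminins, nidogens, perlecan and agrin had a median of 0.29 with 1 that rose (7.14%). The difference between the lists was not tested.

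Inside the cell, of 25 measured integrin adaptors and activators (of 27 listed), 2 rose and 1 fell on day 3, with a median of 0.07. Fermt3, the kindlin of blood cells that activates integrins, rose by 1.73 ± 0.38 (mock 4.31 ± 0.34, day 3 resected 6.04 ± 0.94, SD, n = 3, adjusted p = 0.0157, limma), a call that ended in 3 of the alternative fits (adjusted p 0.0672 to 0.0852). Actn4, an actin crosslinker, rose by 1.33 ± 0.25, and the focal adhesion protein Tns3 fell by 0.79 on the log2 scale, a call that ended in 10 alternative fits (0.0525 to 0.143). The calls of Fbln1 and Pxdn ended in 8 (0.0505 to 0.143) and 4 (0.0525 to 0.104) alternative fits. In the dystroglycan-linked complex 1 of 12 measured genes (of 16 listed) fell, the cytoplasmic dystrobrevin Dtna (-1.53 ± 0.30), and 0 rose.

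**Figure D4:**
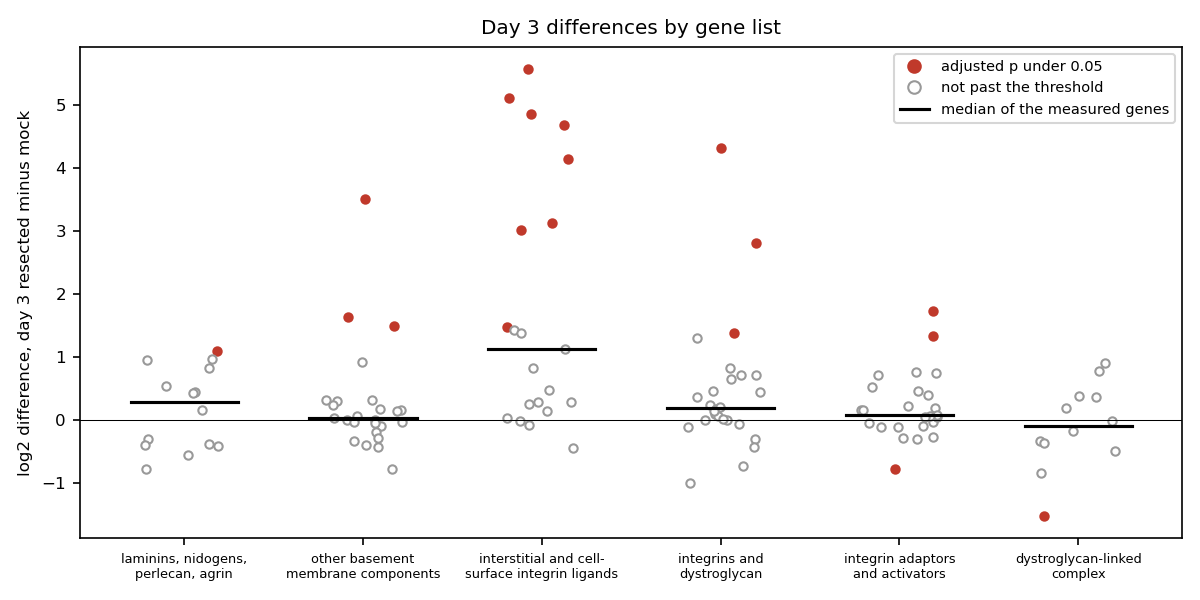
Log2 difference of day 3 resected minus mock glands (y axis) for each measured gene of 6 groups; filled points passed the threshold and lines are group medians. The interstitial and cell-surface ligands have a median of 1.13 and reach 5.57, while the medians of the other 5 groups lie between -0.10 and 0.29. Of the other basement membrane components 11 of 25 stayed below the background median on all arrays, beside 3 of 21 ligands.

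By day 14 none of the 40 genes passed against mock (0 with limma, beside 0.0991% of all transcript clusters that were higher, 0.054% that were lower and 0.153% in either direction). At an unadjusted p below 0.05 there were 2 genes, Nid2 and Lama3, beside 8.18% of all transcript clusters. Nid2 was 1.00 ± 0.26 above mock (adjusted p = 0.254, limma), beside a day 3 difference of 0.95 ± 0.26. Both comparisons share the mock arrays, and all 3 of those were below the background median for Nid2, so both sizes are approximate. Lama3 differed by -0.78 ± 0.24 (adjusted p = 0.383, limma), with all day 14 arrays below all mock arrays. Itgam differed by 0.61 ± 0.31, its day 14 arrays all above the mock arrays, and did not pass (adjusted p = 0.653, limma). The 40 differences ran from -0.78 to 1.00 with 20 above and 20 below 0. In the 4 surrounding lists 0 genes passed.

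Day 14 set against day 3 resected glands compares the resected groups directly, since the mock arrays cancel in the difference. They still enter the shared estimate of the spread, and so the SE and the p-values. With no mock glands of day 14, a change in the effect of resection cannot be told apart from the time since surgery. Here 8 of 40 genes passed, 7 lower and 1 higher on day 14 (20%), beside 4.88% of all transcript clusters that were lower, 1.4% that were higher and 6.28% in either direction. The comparison shares the day 3 resected arrays with that of day 3 against mock. Itgam fell by 3.71 on the log2 scale (SE 0.31, adjusted p = 2.1e-05, limma) and Itgb2 by 2.71 (SE 0.44, adjusted p = 0.00197). These were the genes whose calls held in all 9 fits that left out 1 array. All 5 measured macrophage markers fell as well, a call that for Mrc1 ended in 2 fits (adjusted p 0.0516 and 0.0690), and so did 2 of 5 neutrophil markers (Retnlg and S100a8) and Pf4. Their part in the integrin differences was not tested.

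The other 5 that were lower on day 14 were Itga5 (-1.38 ± 0.37, adjusted p = 0.045, limma), Itga4 (-1.31 ± 0.31, 0.0238), Itgb3 (-0.998 ± 0.26, 0.0355), Lama4 (-0.98 ± 0.23, 0.0238) and Itga9 (-0.97 ± 0.23, 0.0251). For each of them all day 14 arrays lay below all day 3 resected arrays. The gene that was higher was Itga8 (1.27 ± 0.28, 0.0144), all of whose day 14 arrays lay above the day 3 resected arrays, at a mean of 8.33 ± 0.56 beside a mock mean of 8.06 ± 0.03 (SD, n = 3). Among the 14 laminins, nidogens, perlecan and agrin, Lama4 was the 1 that passed between the days. Nid2 differed between them by 0.05 ± 0.26 and Nid1 by -0.64 ± 0.35, which was -1.14 without day 3 resected replicate 1 (adjusted p = 0.0161, limma). Pericyte and vascular smooth muscle markers had 0 of 4 genes past the threshold between the days, and 2 of 5 acinar markers (Bhlha15 and Slc12a2) were higher on day 14. Their part in the Itga8 difference was not tested. Each of the 6 calls other than those of Itgam and Itgb2 ended in at least 1 alternative fit: Itga5 (adjusted p 0.0533 to 0.156), Itga4 (0.0545 to 0.114), Itgb3 (0.0634 to 0.163), Lama4 (0.0546 to 0.113), Itga9 (0.0693 to 0.111) and Itga8 (0.0530 to 0.0795). The call of Itga5 also ended when any 1 mock array was left out (adjusted p 0.0533 to 0.0615, limma). In a fit of only the resected groups its adjusted p was 0.0784. The count was 2 without day 3 resected replicate 3 and 5 without its replicate 2. It was 4, 3 and 3 without day 14 resected replicates 1, 2 and 3. Without day 3 resected replicate 3 all 6 calls ended. The differences were then -0.87 for Itga5, -1.01 for Itga4, -0.79 for Itgb3, -0.76 for Lama4, -0.89 for Itga9 and 1.11 for Itga8.

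In the surrounding lists, 4 of 25 adaptors were lower on day 14 than on day 3 after resection and 0 higher. They were Fermt3 (-1.41 ± 0.38), the actin-linking focal adhesion proteins Vcl (vinculin, -1.26 ± 0.26) and Zyx (zyxin, -0.97 ± 0.25), and the integrin activator Tln1 (talin-1, -0.84 ± 0.23). The calls of Fermt3, Zyx and Tln1 ended in 10, 10 and 11 alternative fits, and that of Vcl in 1 (adjusted p 0.0545). Of the interstitial and cell-surface ligands 8 of 21 were lower and 0 higher, among them Tnc (-4.73 ± 0.78), Col1a1 (-3.92 ± 0.58), Col1a2 (-3.20 ± 0.43) and Fn1 (-3.18 ± 0.57). Of the other basement membrane components 1 of 25, Sparc, was lower (-2.51 ± 0.31), and in the dystroglycan-linked complex 0 of 12 passed.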

How the data were processed

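RNA of 9 submandibular glands was measured on Clariom S mouse arrays. Per the submitters' processing notes and the series' design text, the authors made the deposited log2 values with Transcriptome Analysis Console 4.0 and RMA, a method that corrects background, normalizes across arrays and summarises probes. No genome build or annotation version was given in the sources used here. The deposited table held 28846 rows. 6640 control rows were left out, and 22206 transcript clusters were tested, of which 19572 carry 1 symbol (looked up by Entrez identifier in RefSeq GRCm38.p6) and 2634 none. Each of the 40 genes had 1 transcript cluster. The related lists used the cluster with the highest mean per symbol.

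Tests used limma 3.58.1 in R 4.3.3, with a mean per group over all 9 arrays and empirical Bayes (6 residual and 6.63 prior degrees of freedom). They were two-sided, with Benjamini-Hochberg adjustment over all transcript clusters and a threshold of 0.05, and were tested on simulated data. Replicates are biological per the labels, and the number of arrays limits the precision. Members, lists and comparisons were chosen with earlier results of these data known. Named with values are genes past the threshold in a comparison, all laminin chains, the added basement membrane genes, partner subunits of called integrins, and up to 4 called genes per related list and comparison. Other members are given by their difference. Levels of different genes are not compared, since probes differ. Alternatives were scaling, a filter on the dimmest 30%, variance and weight settings, the samples in the fit, a replicate block, the cluster rule, the member rule (without Itgb2l), a size threshold and leaving out each array.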

Additional observations from a re-analysis of the deposited data

Results flagged for a closer look

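For 8 of the 40 genes (20%), resected glands differed between day 14 and day 3, beside 6.28% of all transcript clusters. The test was of day 14 minus day 3 resected glands (limma, adjusted over all transcript clusters). The differences were -3.71 for Itgam, -2.71 for Itgb2, -1.38 for Itga5, -1.31 for Itga4, -0.998 for Itgb3, -0.98 for Lama4, -0.97 for Itga9 and 1.27 for Itga8. On day 3 and day 14 against mock the values were 4.32 and 0.61 for Itgam, 2.81 and 0.10 for Itgb2, 1.39 and 0.08 for Itga4, and -1.01 and 0.27 for Itga8. Mock glands were sampled on day 3 only, so a change in the effect of resection cannot be told apart from the time since surgery. Of the 8 calls, only those of Itgam and Itgb2 held in every fit.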

How the results depend on the processing

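The count of genes past the threshold on day 3 against mock was 4, and 4 to 7 over 11 alternatives that kept all arrays, with 7 (6 higher and 1 lower, Itga8) under robust variances. It was 2 to 9 when 1 array was left out, with 9 without day 3 resected replicate 1 and 2 without its replicate 3. On day 14 against mock the count was 0 in all 20 alternatives run. Between the resected days the count was 8, 5 to 8 over the alternatives that kept all arrays (5 with a log2 difference of at least 1 as well), and 2 to 8 when 1 array was left out. Of 12 calls of single genes, Itgam and Itgb2 held in both comparisons in every fit, and the other 8 ended in at least 1. Of 30 calls of related genes named, 9 ended in at least 1 fit. In the other direction, 7 results not called passed in at least 1 fit. None of the 12 calls changed sign. Of all 120 gene results, 43 changed sign in a fit where neither that fit nor the main setting called them, all with a main difference of 0.37 or less in size. Itga5 is left out by the filter on dim transcript clusters. Same-numbered replicates of different groups did not vary together (9 pairs, correlations of deviations -0.09 to 0.05). No pairing of the samples by number was seen, though these values cannot exclude it. With the replicate block the counts were 5, 0 and 7, with Itga8 added on day 3 and Itgb3 lost between the days. The mean of a symbol's clusters differs from the main setting here only through the number of features adjusted over. Genes near the background rows, such as Itga5, Itgb2 and Nid2, are limited by signal.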
